A study of Mus musculus with 4 samples.

Results

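Type I interferon-stimulated genes were followed in hematopoietic stem and progenitor cells (HSPCs) that had lost Chaf1b, which encodes a subunit of the histone chaperone CAF-1. The set is a list of 45 mouse genes chosen by name, with earlier results of these data known. All 45 were found by symbol among 33068 named gene identifiers (43629 identifiers in all), and all 45 were among the 16500 genes with enough counts to be tested. No member had 0 counts in any library.

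The cells were CD117+ HSPCs of C57Bl/6 mice with Chaf1b fl/fl, so that loxP sites flanked both copies of the gene in the control libraries as well. They were spinfected with the retroviral vector MIGR1, either empty (MIGR1, 2 libraries) or carrying Cre recombinase (dChaf1b, 2 libraries), and eGFP-positive cells, which hold the vector, were sorted and their total RNA sequenced after 48 h. By the labels, all 4 cultures received SCF at 50 ng/mL, IL-3 at 10 ng/mL and IL-6 at 20 ng/mL (the study's methods give less IL-6), and no interferon or inducer of interferon is named for any of them. The labels give neither age nor sex, and do not say whether the 2 libraries of a group came from separate animals. The p-values therefore measure only the spread between these samples, which may be technical within MIGR1. The 2 dChaf1b libraries differ in their sex-linked RNA, as given below.

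Type I interferons are secreted proteins that bind a receptor made of Ifnar1 and Ifnar2. The kinases Jak1 and Tyk2 then phosphorylate STAT proteins, among them Stat2, which joins Irf9 in a complex that binds the interferon-stimulated response element (ISRE) in the promoters of its target genes. The products of these genes degrade or edit viral RNA, hold back translation, tag proteins or restrict viruses at membranes, and stem and progenitor cells of the blood are known to respond to interferon.

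The response element was looked for in the promoters of the members, because it is the sequence through which the pathway reaches them. Promoters of 35 of the 45 genes were held in a RefSeq table of GRCm38.p6 (250 bases before to 50 bases after an annotated start). The ISRE core was spelled GAAANNGAAA, or TTTCNNTTTC on the other strand, and it was present in 14 of the 35 members (40%), against 3.99% of all 27025 genes of the table and 3.76% of the 9870 of them that were tested. The windows below come from the member of each functional group with the largest ratio in dChaf1b replicate 1 among those that hold the core. Each was found base for base in NCBIM37, the build called mm9, and is written 5′ to 3′ along the strand of its gene, with the cores in capitals. Where cores overlap, the capitals run through.
Stat2, chr10:127707304-127707371, plus strand: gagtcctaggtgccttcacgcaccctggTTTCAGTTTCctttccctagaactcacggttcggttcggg
Isg15, chr4:155574954-155575035, minus strand: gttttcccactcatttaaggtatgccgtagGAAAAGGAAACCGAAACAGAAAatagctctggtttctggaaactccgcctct
Ifit3, chr19:34657833-34657936, plus strand: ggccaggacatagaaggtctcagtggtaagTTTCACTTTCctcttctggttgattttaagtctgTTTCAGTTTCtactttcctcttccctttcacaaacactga
Oas1g, chr5:121337595-121337670, minus strand: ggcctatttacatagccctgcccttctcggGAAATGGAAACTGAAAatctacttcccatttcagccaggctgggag
Ddx60, chr8:64406801-64406904, plus strand: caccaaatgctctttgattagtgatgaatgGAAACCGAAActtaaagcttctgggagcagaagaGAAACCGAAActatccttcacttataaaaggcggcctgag
Rsad2, chr12:27141398-27141467, minus strand: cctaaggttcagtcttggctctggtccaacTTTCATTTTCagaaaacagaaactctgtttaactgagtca
Bst2, chr8:74061456-74061531, minus strand: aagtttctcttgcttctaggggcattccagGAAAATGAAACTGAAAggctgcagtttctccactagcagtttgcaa
Slfn5, chr11:82765419-82765488, plus strand: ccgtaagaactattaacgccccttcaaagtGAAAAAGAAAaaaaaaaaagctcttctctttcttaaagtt

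Isg15 holds 3 overlapping cores, which begin 78, 72 and 66 bases before the annotated start (positions -78, -72 and -66). In Oas1g and Bst2 a pair of cores overlaps, at -18 and -12 and at -130 and -124, and in Ifit3 and Ddx60 the 2 cores lie apart, at -156 and -122 and at -53 and -19. Ifit1 has 2 cores as well, at -104 and -85. Of the promoters held in the table, none of the ADP-ribosyltransferase group, the nuclear body proteins or the group of other induced genes had the core, which says only that these letters are not in the window. Usp18, Parp9, Parp14, Oas2, Mx1, Mx2, Ly6e, Ifi27l2a, Rtp4 and Tor3a had no entry. A second motif, the core of the gamma-activated sequence, another element of interferon-responsive promoters (TTCNNNGAA, the same on both strands), was present in 8 of the 35 members (22.9%) and in 9.55% of all genes of the table.

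The libraries held between 18468637 and 25409926 counts on genes, and levels are given in CPM (the count divided by this total and scaled to 1e+06), in the order MIGR1 replicate 1, MIGR1 replicate 2, dChaf1b replicate 1 and dChaf1b replicate 2. Chaf1b itself stood at 80.3, 57.9, 16.1 and 17.9 CPM, and so was low in both dChaf1b libraries to the same extent (log2 ratio to MIGR1 -1.98 and -2.03). Kit, which encodes CD117, was present in all 4 at 109.5, 124, 95.6 and 124 CPM. One library stood apart in its sex-linked RNA. dChaf1b replicate 1 had 7905 counts of Xist, the RNA that coats the inactive X chromosome of female cells, against 23 to 33 in the other 3 libraries, and 3 counts on 4 Y-linked genes against 5805 to 7771. The share of reads outside genes was 35.8% in dChaf1b replicate 1 and 48.3% in dChaf1b replicate 2, to either side of 42.3% and 42.1% in MIGR1. Given the sex-linked RNA, what sets dChaf1b replicate 1 apart from any other library cannot be told apart from a difference between the animals. Each dChaf1b library was compared with the 2 MIGR1 libraries on its own, which does not remove this limit.

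Most of the members rose in dChaf1b replicate 1, while in dChaf1b replicate 2 the differences were mostly smaller and went both ways. The 45 genes took 2521, 2589, 7898 and 2995 CPM in sum. In dChaf1b replicate 1, 44 of the 45 (97.8%, all but Pml) lay above both MIGR1 libraries, where 29.3% of all genes tested did. In dChaf1b replicate 2, 28 members (62.2%) lay above both MIGR1 libraries, 9 between them and 8 below both, and 43.8% of all genes lay above. These 28 were also the members with both dChaf1b libraries above both controls, which held for 21.4% of all genes. The MIGR1 libraries themselves were close to each other, with 5 members (11.1%) at least 1.5-fold apart against 23.5% of all genes. Between the dChaf1b libraries, 43 members were higher in replicate 1 by CPM, and Trim25 and Pml were higher in replicate 2.

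**Figure D1:**
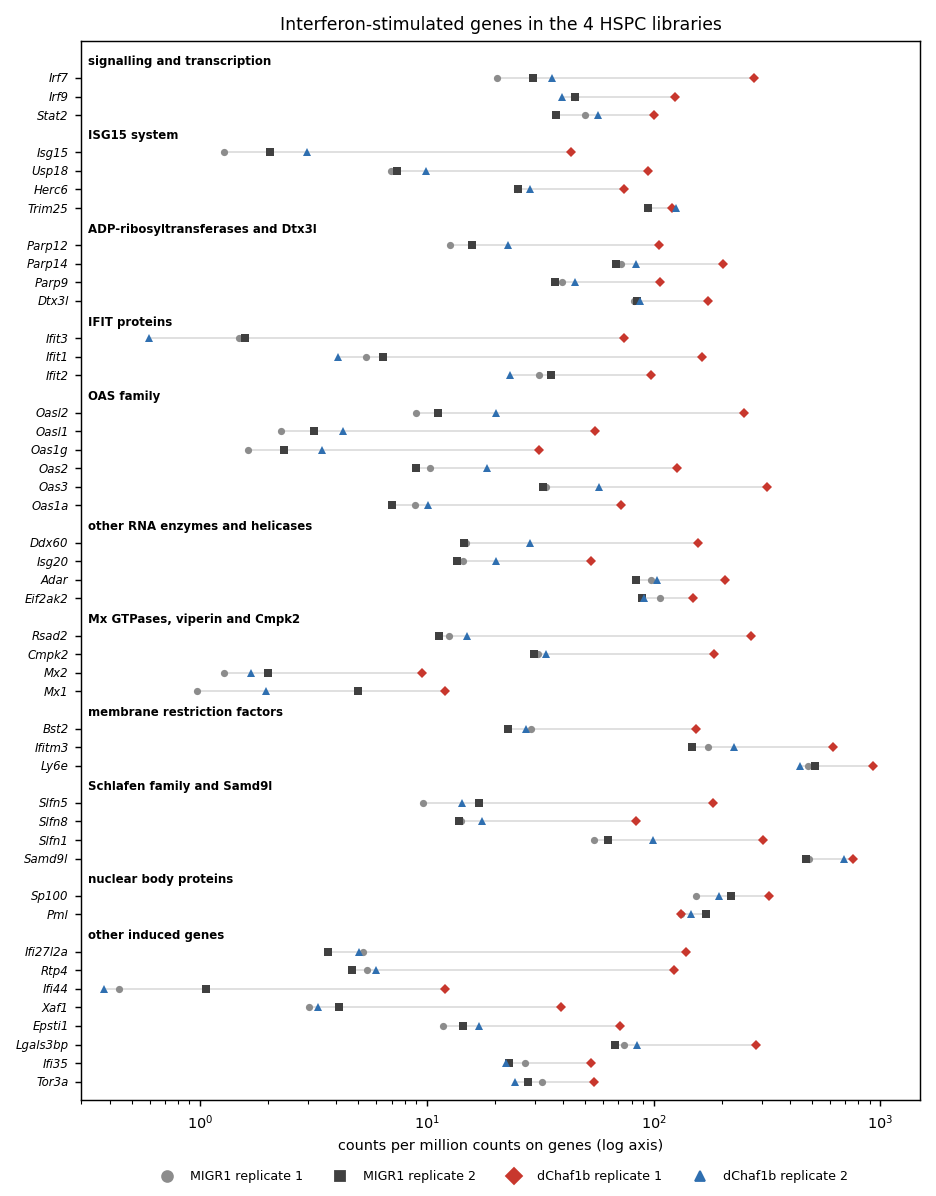
Level of each of the 45 interferon-stimulated genes in the 4 libraries, in CPM on a log axis, grouped by function and ordered within a group by the ratio in dChaf1b replicate 1. The red diamonds (dChaf1b replicate 1) lie to the right of both MIGR1 symbols for 44 genes, while the blue triangles (dChaf1b replicate 2) lie above both for 28.

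Changes were tested across all 16500 genes with edgeR's quasi-likelihood test, and a gene was called where it changed at least 1.5-fold with a Benjamini-Hochberg adjusted p under 0.05. Log2 ratios are edgeR's fitted values after TMM scaling, with an approximate standard error behind the ±. In dChaf1b replicate 1, 38 of the 45 members (84.4%) were called higher and none lower, where 2.70% of all genes were called higher, and the median log2 ratio was 2.66 (-0.05 over all genes). In simulated data this model made more false calls than its threshold promises. Of the 38 calls, 32 held under all 9 other scalings, filters, tests and dispersions tried, Stat2, Dtx3l, Mx2, Ly6e and Ifi35 were lost under some, and Ifi44 was not tested under the strictest filter and held under the other 8. With dChaf1b replicate 2, 0 members were called in either direction, where 0.739% of all genes were called higher. There, 8 of the 45 members had an unadjusted p under 0.05, as had 2117 of the 16500 genes. DESeq2 and edgeR's likelihood ratio test called 0 members as well, and the median was 0.16 (-0.01 over all genes). Each of these tests sets a single library against 2 controls and assumes that it varies as the controls do. Both tests use the same MIGR1 libraries, so they are not independent of each other.

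The contrast between the dChaf1b libraries, taken from the same model as these single-library tests, gave the difference directly. In it, 27 members (60%) were called higher in replicate 1 and none lower, where 0.236% of all genes were called higher, and the median log2 difference was 2.45 (-0.01 over all genes). The 27 made up 69.2% of the 39 genes called higher in that contrast. This count fell to 8 members where all 4 libraries had to reach 10 counts (9 genes called higher in all), and was 42 without a filter on low counts (329 genes). When the 2 dChaf1b libraries were taken as replicates against MIGR1, 0 members were called by the quasi-likelihood test (0.370% of all genes were called higher). Of the members, 33 had an unadjusted p under 0.05, as had 2022 of the 16500 genes, and the median log2 ratio was 1.87. DESeq2 called 3 of them in that comparison, edgeR's exact test 14 and its likelihood ratio test 18. These tests called more genes of all kinds too, with 471, 537 and 583 called higher against 61 by the quasi-likelihood test. The count also depended on which library was left out. Such fits keep a single library in 1 group, so no conclusion is drawn from their counts. Set against MIGR1 on its own, dChaf1b replicate 1 had a median log2 ratio of 2.66 over the members, and dChaf1b replicate 2 had 0.16. The 2 libraries therefore contributed unequally to the median of 1.87.

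**Figure D2:**
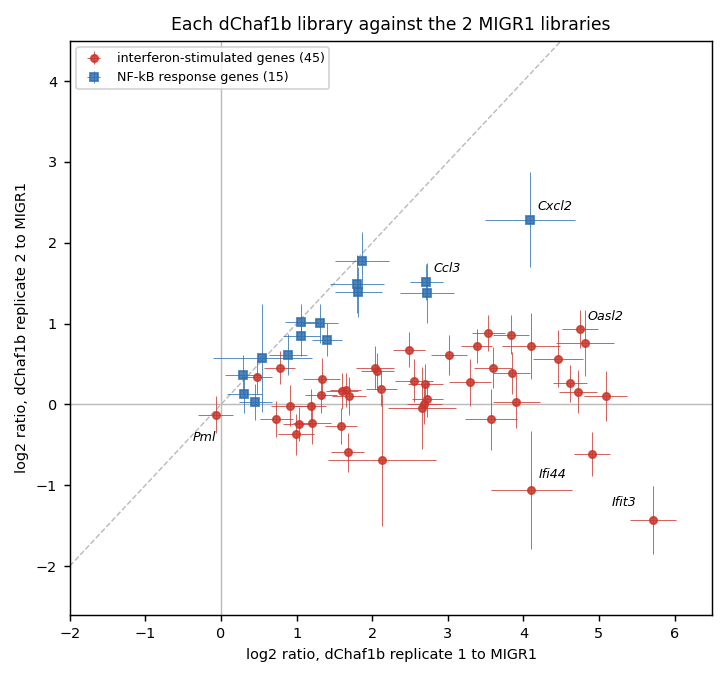
Log2 ratio to the 2 MIGR1 libraries in dChaf1b replicate 1 (horizontal axis) and in dChaf1b replicate 2 (vertical axis) for the 45 interferon-stimulated genes (red circles) and 15 NF-kB response genes (blue squares), with approximate standard errors as bars and equal ratios on the dashed line. The interferon-stimulated genes spread along the horizontal axis up to 5.72 and stay between -1.43 and 0.93 on the vertical one, while the NF-kB genes lie nearer to the dashed line; both axes share the control libraries.

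The group of signalling and transcription factors carries the interferon signal into the nucleus. Irf7, a transcription factor that is itself induced and drives further interferon genes, stood at 20.4, 29.3, 276 and 35.8 CPM. It was high in dChaf1b replicate 1, and dChaf1b replicate 2 lay just above the controls. Its log2 ratio was 3.60 ± 0.25 in dChaf1b replicate 1 (adjusted p = 0.000289) and 0.45 ± 0.26 in dChaf1b replicate 2 (adjusted p = 0.49). Irf9, the DNA-binding part of the complex, had 45.0, 44.8, 124 and 39.4 CPM, so that dChaf1b replicate 2 was below both controls. Stat2 had 49.8, 37.0, 100.4 and 57.1 CPM and the smallest ratio of the 3, 1.33 ± 0.25. All 3 were called in dChaf1b replicate 1, and Irf7 and Irf9 also between the dChaf1b libraries, while the difference of 1.01 ± 0.30 for Stat2 was not (adjusted p = 0.30). Exons of Irf7 overlap those of Phrf1, and exons of Irf9 those of Rnf31.

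The ISG15 system tags proteins with a small ubiquitin-like modifier. Isg15, the modifier, had 29, 52, 1014 and 55 counts, which is 1.28, 2.05, 43.1 and 2.98 CPM. Usp18, which removes Isg15 from proteins and dampens signalling at the receptor, stood at 6.95, 7.40, 94.6 and 9.91 CPM. Both were far above the controls in dChaf1b replicate 1 and slightly above them in dChaf1b replicate 2. Their log2 ratios in dChaf1b replicate 1 were 4.81 ± 0.38 and 3.84 ± 0.25. Herc6, the main ligase for Isg15 in the mouse, was called there too (1.69 ± 0.22) but not between the dChaf1b libraries. Trim25, a ligase that activates the RNA sensor RIG-I, had the highest level per length of these 4 genes and the smallest ratio, with 94.1, 94.9, 120.3 and 125.9 CPM and a log2 ratio of 0.47 ± 0.21 that was not called. Both dChaf1b libraries lay above both controls, and their difference was 0.13 ± 0.24 after TMM scaling, which turns the order of the CPM values.

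Among the ADP-ribosyltransferases, enzymes that modify proteins with ADP-ribose, Parp12 changed most. It stood at 12.6, 15.8, 105.7 and 22.8 CPM, and its log2 ratio was 3.02 ± 0.24 in dChaf1b replicate 1 and 0.61 ± 0.25 in dChaf1b replicate 2. Parp14 (1.65) and Parp9 (1.60) rose in dChaf1b replicate 1. Dtx3l, the ubiquitin ligase that pairs with Parp9 and has the highest level per length of this group, had 82.4, 84.6, 174 and 86.7 CPM and the smallest ratio, 1.19 ± 0.20. In dChaf1b replicate 2 it lay only just above the controls by CPM. Parp9 and Dtx3l lie within 10 kb of each other on chromosome 16 and share exonic sequence, so their counts are not fully separate. All 4 were called in dChaf1b replicate 1, and only Parp12 between the dChaf1b libraries.

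The IFIT proteins, which bind viral RNA and block its translation, had the largest median of any group in dChaf1b replicate 1 (4.91) and the lowest in dChaf1b replicate 2 (-0.62). Ifit3 had 34, 40, 1751 and 11 counts. Ifit1 had 5.41, 6.42, 163 and 4.06 CPM. In each case dChaf1b replicate 1 was far above the controls and dChaf1b replicate 2 below both. The log2 ratio of Ifit3 in dChaf1b replicate 1 was 5.72 ± 0.30 (adjusted p = 4.81e-05), the largest of the 45 members and 12th of the 16500 genes tested. Ifit2, whose ratio was the smallest of the 3, stood at 31.2, 35.4, 97.6 and 23.3 CPM, again lowest in dChaf1b replicate 2. All 3 were called in dChaf1b replicate 1 and between the dChaf1b libraries, with differences of 7.15 ± 0.46, 5.53 ± 0.34 and 2.27 ± 0.28 for Ifit3, Ifit1 and Ifit2. None was called lower in dChaf1b replicate 2 (adjusted p from 0.21 to 0.40). All 3 ratios were below 0 in each of the 12 settings tried, the one reported included. These settings reuse the same single dChaf1b replicate 2 library, so they are not independent of each other. Of the exonic stretches of 31 bases in Ifit3, 62.8% were found at another place too, which leaves its counts uncertain. Ifit2 and Ifit3 are neighbours within 10 kb on chromosome 19.

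The OAS family makes or resembles enzymes that sense double-stranded RNA and activate the nuclease RNase L. In dChaf1b replicate 1 the 6 genes had log2 ratios of 3.30 to 4.75 and were all called, and all 6 were called between the dChaf1b libraries as well. Oasl2 had 8.97, 11.3, 249.6 and 20.3 CPM, the largest ratio of the family (4.75 ± 0.24, adjusted p = 3.85e-05). Oas3, the member of the family with the highest level per length, stood at 33.5, 32.5, 315 and 57.3 CPM. Oas1a had the smallest ratio (3.30 ± 0.27) and 8.88, 7.01, 71.6 and 10.1 CPM. In dChaf1b replicate 2 all 6 lay above both controls, with log2 ratios from 0.27 to 0.93 and a median of 0.72. None of these was called (lowest adjusted p 0.15, for Oasl2). All 6 were above 0 in each of the 12 settings, which reuse the same dChaf1b replicate 2 library. Oas1a and Oas1g share sequence, with 69.7% and 63.4% of their 31-base stretches found elsewhere, and lie within 10 kb of each other on chromosome 5, as do Oas2 and Oas3, so these pairs are not independent examples.

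The other enzymes and helicases acting on RNA spanned a wide range. Ddx60, a helicase linked to RIG-I signalling, had 14.9, 14.6, 157 and 28.6 CPM. Its log2 ratio was 3.54 ± 0.22 in dChaf1b replicate 1, and its 0.88 ± 0.22 in dChaf1b replicate 2 had the lowest adjusted p of the 45 members there (0.15). Eif2ak2, or PKR, the kinase that stops translation on double-stranded RNA, had the highest level per length of these 4 and stood at 106.3, 89.2, 149 and 91.0 CPM. It had the smallest ratio (0.73 ± 0.22) and was not called. Isg20, a nuclease (2.04), and Adar, the enzyme that edits adenosine in RNA (1.32), were called in dChaf1b replicate 1, and only Ddx60 of the group was called between the dChaf1b libraries.

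Rsad2, or viperin, an enzyme that makes a chain-terminating nucleotide from CTP, and Cmpk2, a mitochondrial nucleotide kinase, both rose in dChaf1b replicate 1. Rsad2 had 284, 287, 6326 and 277 counts and a log2 ratio of 4.62 ± 0.22 in dChaf1b replicate 1. Cmpk2 had 30.9, 29.8, 184.9 and 33.6 CPM and a ratio of 2.73 ± 0.21. For both genes dChaf1b replicate 2 lay slightly above the controls by CPM (log2 ratios 0.26 and 0.07), and both were called between the dChaf1b libraries. The Mx GTPases, which trap viral particles, were scarce. Mx2 had 29, 51, 225 and 31 counts and was called in dChaf1b replicate 1 (2.66 ± 0.45). Mx1, of which C57BL/6 mice carry a defective copy, had 22, 127, 282 and 36 counts, so that its controls were 5.17-fold apart in CPM, the widest of any member, and its ratio of 2.13 ± 0.72 was not called (adjusted p = 0.15).

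Among the membrane restriction factors, Ifitm3 and Ly6e had the highest levels per length of all members. Ifitm3, which blocks the fusion of viruses with endosomes, had 173.5, 147, 617.5 and 226 CPM. Ly6e, a surface protein of the same kind of role, had 478, 514, 927 and 441 CPM, with dChaf1b replicate 2 below both controls and the smallest ratio of the group (1.03 ± 0.20, adjusted p = 0.034). Bst2, or tetherin, which holds budding virus at the cell surface, had 28.9, 22.9, 154 and 27.4 CPM and the largest (2.69 ± 0.24). All 3 were called in dChaf1b replicate 1, and Bst2 alone between the dChaf1b libraries, where Ifitm3 had an adjusted p of 0.056.

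Of the Schlafen genes and Samd9l, Slfn5 had 9.68, 16.9, 182.9 and 14.4 CPM, and the ratio was 3.91 ± 0.31. Slfn1, which restrains proliferation of lymphoid cells, rose to 303 CPM in dChaf1b replicate 1 and lay at 99.3 CPM in dChaf1b replicate 2, against 54.6 and 63.2 in the controls. Slfn8 rose as well (2.71 ± 0.23), with 29.9% of its 31-base stretches found elsewhere. Samd9l, a restrictor of proliferation, had the highest level per length of this group at 485, 471, 754 and 691 CPM. It was above the controls by a similar amount in both dChaf1b libraries (0.78 ± 0.20 and 0.46 ± 0.21), was not called in either, and differed between them by 0.32 ± 0.24 (not called). The 3 Schlafen genes were called in dChaf1b replicate 1 and between the dChaf1b libraries.

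Neither of the nuclear body proteins was called in any comparison as reported. Sp100 had 154, 219.8, 321.5 and 195 CPM and a ratio of 0.91 ± 0.25 in dChaf1b replicate 1 that was not called. Of the 9 alternatives, 3 called it there and 1 between the dChaf1b libraries. Pml, which builds the nuclear bodies, had 133, 169.9, 132 and 146 CPM. It was the only member below both controls in dChaf1b replicate 1 by CPM, with log2 ratios of -0.07 ± 0.23 and -0.13 ± 0.23, and it was not called under any of the alternatives.

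Of the 8 other induced genes, 7 were called in dChaf1b replicate 1 and 6 between the dChaf1b libraries. Ifi27l2a, a mitochondrial protein of the ISG12 family with the highest level per length of these 8, had 5.23, 3.66, 139 and 5.04 CPM. Rtp4, a chaperone of membrane receptors, had 5.45, 4.68, 122.7 and 5.96 CPM. In dChaf1b replicate 2 the first lay between the controls and the second just above them, and the log2 ratios in dChaf1b replicate 1 were 5.09 ± 0.28 and 4.72 ± 0.25. The exons of Ifi27l2a overlap those of Ifi27l2b. Ifi44 was the scarcest, with 10, 27, 283 and 7 counts. Xaf1 (3.58), Epsti1 (2.56), Lgals3bp (2.12) and Ifi35 (1.20) were called too. Tor3a, an ATPase of the endoplasmic reticulum, had the smallest ratio, at 32.1, 27.9, 54.8 and 24.5 CPM (0.99 ± 0.24, adjusted p = 0.068), and was not.

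**Figure D3:**
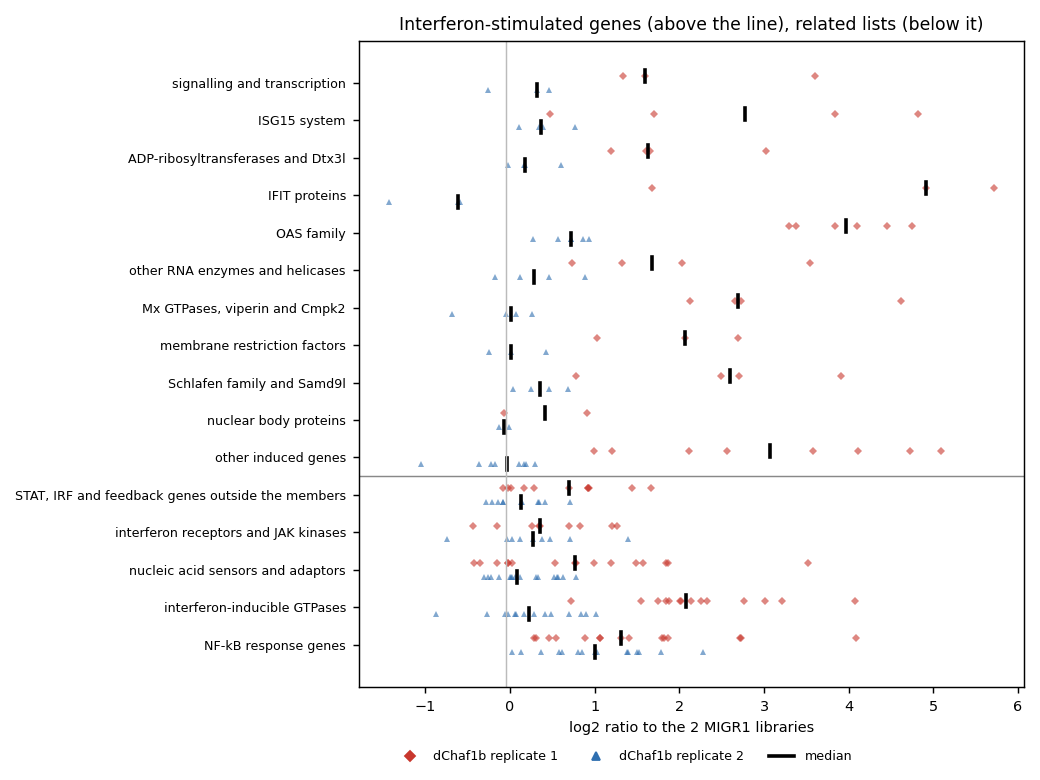
Log2 ratio to the 2 MIGR1 libraries of each gene in dChaf1b replicate 1 (red diamonds) and dChaf1b replicate 2 (blue triangles), by functional group of the interferon-stimulated genes above the line and by related list below it, with medians as black bars and the median of all genes in replicate 1 as the grey line. Above the line, medians in dChaf1b replicate 1 run from 0.42 for nuclear body proteins to 4.91 for IFIT proteins, and in dChaf1b replicate 2 from -0.62 to 0.72.

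Members with the response element in their promoter (the windows printed above among them) had a larger median ratio than those without it. The 14 with the core had a median log2 ratio of 3.46 in dChaf1b replicate 1 (0.73 to 5.72), and 13 of them were called. The 21 without it had a median of 2.04 (-0.07 to 4.75), and 17 were called. The ranges overlap widely. Oasl2, at 4.75, has no core in its window, and Eif2ak2, at 0.73, has one. Oas1a and Oas1g, which share exonic sequence, count as 2 of the 14.

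**Figure D4:**
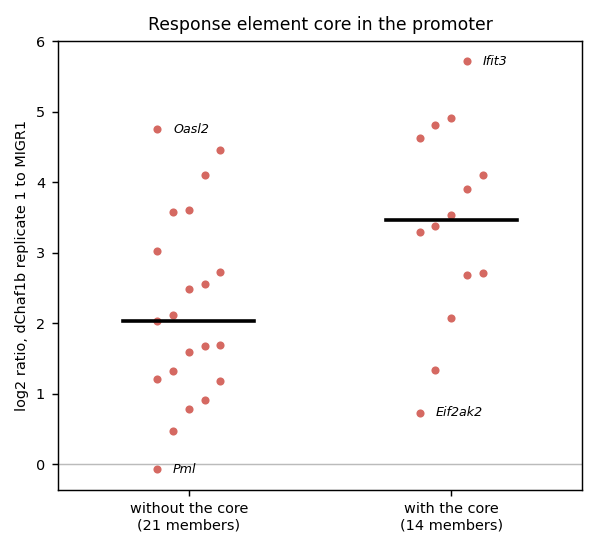
Log2 ratio in dChaf1b replicate 1 to the 2 MIGR1 libraries for the 21 members without and the 14 members with an ISRE core in the promoter, each point a gene and each bar a median. The medians are 2.04 and 3.46, and the points of the 2 sets overlap between 0.73 and 4.75.

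Genes upstream of the members were compared next. Of 21 ligand genes, 11 were matched by a current or older name, and none was above 1.46 CPM. Ifnb1, the first interferon that most cells make, had 0, 0, 0 and 1 counts, where 3 counts, the limit that a count of 0 allows, would be 0.118 to 0.162 CPM. Ifna13, an interferon alpha, had 0, 0, 4 and 6 counts. Only Ifnk, a keratinocyte interferon, passed the filter, with 13, 4, 4 and 27 counts and no call. Ifng, the interferon of T and NK cells, was at 0 in all 4 libraries. RNA of the cells that were sorted cannot show interferon made by other cells or earlier.

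The receptors and their kinases were present in all 4 libraries. Ifnar1 had 79.5, 81.2, 94.4 and 102.3 CPM, and Ifnar2 51.2, 57.3, 88.3 and 79.0 CPM. Of the 9 genes, only Il10rb, a subunit shared with other cytokine receptors, was called in dChaf1b replicate 1 (1.21). Among the feedback genes outside the list, Socs1, an inhibitor of the Jak kinases that the pathway induces, had 245, 267, 730 and 337 counts and a ratio of 1.67, and was called there too. Neither Il10rb nor Socs1 was called in dChaf1b replicate 2 or between the dChaf1b libraries.

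Sensors of foreign nucleic acid are partly targets of interferon. Of 16 sensors and adaptors, 4 were called in dChaf1b replicate 1. Zbp1, a sensor of Z-form nucleic acid, had 7.13, 10.9, 94.4 and 13.9 CPM (3.52). The 3 RIG-I-like receptors Dhx58 (1.86), Ddx58 (1.85) and Ifih1 (1.56) made up the rest, and Zbp1 and Ifih1 were also called between the dChaf1b libraries. The adaptors that carry their signal were not called. Interferon-inducible GTPases, which respond to interferon gamma more than to type I interferon and attack the vacuoles of pathogens, were higher in the same library. Of 14 tested, 10 were called in dChaf1b replicate 1, with a median ratio of 2.07, and 0 in dChaf1b replicate 2 (median 0.22), where 0 also had an unadjusted p under 0.05. Iigp1 (4.07), Gbp9 (3.21), Tgtp1 (3.01) and Gbp2 (2.76) had the largest ratios among them, and 1 gene, Igtp, was called between the dChaf1b libraries (difference 2.15).

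NF-kB response genes were listed for comparison. NF-kB drives inflammatory cytokines in many of the same situations. Of 15 tested (16 listed), 9 were called in dChaf1b replicate 1 and 1 in dChaf1b replicate 2. The median ratios were 1.31 and 1.00, and the median difference between the libraries was 0.30, with 0 genes called there and 4 at an unadjusted p under 0.05. Ccl3, a chemokine, had 36.0, 30.2, 199.7 and 99.8 CPM and was called in both. Cxcl2 had 1.36, 5.71, 55.5 and 18.2 CPM, and Il1b had 12.8, 26.0, 64.8 and 70.0 CPM. Both dChaf1b libraries lay above both controls for each of these 3 genes, and for 14 of the 15 tested. The same held for 21.4% of all genes. Whether the NF-kB and interferon lists differ was not tested.

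Markers of other cell types were set beside the members, and their part in the result was not tested. In these bulk libraries, a change in the number of cells of a type and a change in RNA per cell cannot be told apart. The 10 markers of monocytes and macrophages summed to 889 and 1511 CPM in MIGR1 and to 1959 and 975 CPM in dChaf1b. Of these, 2 were called in dChaf1b replicate 1, Ly6c2 (633, 778, 1496 and 620 CPM) and Fcgr1, and none was at 0. Without Ly6c2 the other 9 summed to 255, 733, 463 and 355 CPM, so that dChaf1b replicate 1 lay between the controls, and the median log2 ratio of the 10 there was -0.03. C1qa, a macrophage gene, was high in a control as well, at 0.660, 23.2, 10.6 and 0.433 CPM. The 7 markers of plasmacytoid dendritic cells, the main makers of interferon, summed to 77.9, 76.4, 199 and 85.6 CPM. The only one of them called was Bst2, which is a member, and without it the other 6 summed to 49.0, 53.4, 45.5 and 58.2 CPM. Most of this sum was Tcf4 (47.02, 50.53, 41.25 and 53.71 CPM), which was lowest in dChaf1b replicate 1. Siglech, which defines these cells, had 18, 5, 38 and 27 counts, and Pacsin1 had 5, 3, 13 and 17. By CPM both lay above both controls in both dChaf1b libraries. Ccr9 and Cox6a2 lay between the controls in dChaf1b replicate 1, and Klk1 had 1, 0, 3 and 0 counts.

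The 10 neutrophil markers summed to 48610, 56680, 67470 and 50440 CPM, with 2 called higher in dChaf1b replicate 1 (Ltf and Retnlg), and Retnlg higher and Elane lower in dChaf1b replicate 2. The 7 markers of conventional dendritic cells summed to 19.4, 24.7, 83.7 and 71.7 CPM, with Itgax, Flt3 and Ccr7 called in dChaf1b replicate 1 and the last 2 of these in dChaf1b replicate 2. The other 4 summed to 7.74, 8.93, 7.69 and 14.35 CPM. Sums for T and NK cells (87.4, 102.1, 94.5 and 74.7 CPM), B cells (17.5, 21.4, 33.2 and 28.1), mast cells and basophils (861, 558, 743 and 734), and erythroid cells (66.3, 39.3, 38.3 and 51.6) held no gene called in either library. Cd3e of T cells had 4, 1, 0 and 2 counts. Megakaryocyte markers summed to 95.5, 93.7, 141 and 242 CPM, with 2 called in dChaf1b replicate 2. Of the 7 stem and progenitor markers, only Flt3 was called, in both dChaf1b libraries (2.07 and 2.11). Of olfactory receptor genes, which blood cells are not known to use, 39.7%, 11.8%, 4.05% and 7.14% had at least 1 count, fewest in dChaf1b replicate 1.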

How the data were processed

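Total RNA of the 4 libraries was sequenced after ribosomal depletion with a stranded kit. The authors aligned reads to mm9 with STAR and counted them per gene with HTSeq, and they deposited the raw counts, with 1 table a library. The annotation release and the strand setting of the counting are not given in the sources used here. Names, positions and exon lengths came from GENCODE vM1 (NCBIM37). Named identifiers held 96.9% to 98.4% of counts.

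The members, gene lists and role groups were chosen with earlier results of these data known. In each group, values in every library were given for the member with the highest mean level per length (all exons, 4 libraries) and those with the largest and smallest ratio in dChaf1b replicate 1. Other genes were added after their values were seen.

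Genes were filtered with filterByExpr (minimum count 10) and fitted with edgeR 4.0.16 in R 4.3.3 (TMM factors 0.925 to 1.06, legacy glmQLFit, glmQLFTest, Benjamini-Hochberg over 16500 genes). One model had 2 groups (2 residual degrees of freedom, prior 5.68). The other had MIGR1 and each dChaf1b library as 3 terms (1 residual, prior 7.51), so a dChaf1b library is assumed to vary as MIGR1 does. Replicates differed by more than counting noise. The fits were tested on simulated data, where changes were recovered but more calls were false than the threshold of 0.05 promises, more so in the 3-term model. Standard errors are the ratio divided by the root of F. They include the spread between libraries as the model fitted it. The floor of 3 counts covers counting error only, and reads had no molecular identifiers. Repeated exonic sequence was counted as 31-base stretches over NCBIM37. Alternatives were other normalizations, filters, tests, thresholds and dispersion, a replicate block, and leaving out libraries; edgeR's bias-adjusted test was chosen after seeing the data. The olfactory receptor genes were counted after seeing the data too. One gene of the lists outside the members is not reported here.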

Additional observations from a re-analysis of the deposited data

How the results depend on the processing

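The number of members called higher in dChaf1b replicate 1 (38) stayed between 32 and 43 under all 11 alternatives with a test. Genes of all kinds called higher there ranged from 162 to 1367, against 445 in the reported fit. Of the 38 calls, 32 held under all 9 alternatives that changed the scaling, filter, test or dispersion. Stat2, Dtx3l, Mx2, Ly6e and Ifi35 were lost under some, and Ifi44 was left out by the minimum of 10 counts. Of the members not called, Samd9l and Sp100 were called under 3 of these 9, Tor3a under 2, and Eif2ak2 and Mx1 under 1. Between the dChaf1b libraries 27 members were called, and 39 of all genes, a total that follows each count below in brackets. The count was 11 with DESeq2 size factors (12) and 8 where all 4 libraries had to reach 10 counts (9). It was 42 without a low-count filter (329) and 15 at 2-fold with an adjusted p under 0.01 (16). Of the 27 calls, 8 held under every alternative. For dChaf1b replicate 2 the count was 0 except for 3 without a low-count filter. That setting called 673 of all genes higher, against 122 in the reported fit. With both dChaf1b libraries against MIGR1 (0 called) it was 3 with DESeq2, 14 with the exact test, 18 with the likelihood ratio test and 35 without a low-count filter, and leaving out 1 library gave 0 to 37. The cause of these changes was not tested. The median ratio in dChaf1b replicate 1 (2.66) was 2.67 with DESeq2 size factors, 2.53 by library size only, 2.60 with upper-quartile normalization, 2.59 with a minimum of 10 counts and 2.73 without a filter, and 2.43 to 2.69 without 1 MIGR1 library. In dChaf1b replicate 2 (0.16) the same settings gave 0.15, 0.24, 0.26, 0.20 and 0.14, and 0.13 to 0.24. By library size only, the median of all genes in dChaf1b replicate 1 moved to -0.17, and without a filter to -0.23. With the replicate number as a block, 0 members were called and 17 had an unadjusted p under 0.05 (33 without it). The labels give no pairing, and the deviations of same-numbered libraries had a correlation of 0.0133. Of 2021 values of single members, 0 reversed a call, 60 lost one and 210 gained one. Without 1 MIGR1 library, single dChaf1b libraries give ratios and no test. With 2 libraries a group, and 1 dChaf1b library unlike the rest in Xist and Y-linked genes, changes shared by dChaf1b libraries cannot be separated from those of 1 library by more reads.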

Other observations

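Of the 39 genes higher in dChaf1b replicate 1 than in dChaf1b replicate 2, 12 were not on the list. Beside Xist, Zbp1, Igtp and Ifih1 they held I830012O16Rik, which RefSeq names Ifit3b (log2 difference 5.69), Gm4955, named Ifi206 there (4.79), Ms4a4c (4.88), Trim30d (2.67) and Trim30a (2.02), Ifi27l1 (2.39) and 1 identifier without a name. B2m, the light chain of MHC class I molecules, was also among them, with a difference of 1.61 ± 0.25. These names were chosen after their values were seen.

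In the same contrast 13 genes were lower in dChaf1b replicate 1. They were the Y-linked genes Ddx3y, Eif2s3y, Kdm5d and Uty, several small nuclear and nucleolar RNAs such as Snora23 (-3.88), the miRNA host gene Mir17hg (-2.10), Sh3tc2 (-5.28) and Polr2a, the largest subunit of RNA polymerase II (-1.79).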
